A study of Homo sapiens with 6 samples.

Results

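The genes described here are 10 enzymes and chaperones that fold and modify collagen inside the endoplasmic reticulum (ER): P4HA1, P4HA2, P4HA3, PLOD1, PLOD2, PLOD3, COLGALT1, P3H1, CRTAP and SERPINH1. They were chosen by name from the 58735 genes of the deposited tables, and all 10 were found. The RNA came from the human neuroblastoma line SY5Y, grown in DMEM/F12 with fetal bovine serum. In 3 libraries the cells overexpressed the homeobox transcription factor DLX5, and 3 libraries were controls. The labels give neither the vector and promoter that drive DLX5, nor what the controls carry, nor whether the replicates are separate cultures, so the p-values reflect no more than the variation among these libraries, which may be technical. The study asks how DLX5 relates to MYCN in neuroblastoma.

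Collagen chains enter the ER as loose strands and must be modified before they wind into a triple helix. Prolyl 4-hydroxylases hydroxylate many prolines of each chain, which keeps the helix stable at body temperature, and lysyl hydroxylases hydroxylate lysines that later carry sugars and cross-links. A complex of P3H1, CRTAP and the isomerase PPIB modifies a few further prolines, and the chaperone SERPINH1, also known as HSP47, holds the finished helix on its way to the Golgi. The hydroxylases need iron, 2-oxoglutarate and ascorbate, and several of their genes are known targets of the hypoxia-inducible factors. Loss of P3H1, CRTAP or SERPINH1 causes recessive brittle bone disease.

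Sequence before a RefSeq start site is shown for 3 of the genes because their windows hold the letters of known response elements. All letters are RefSeq's (GRCh38.p14), 5′ to 3′ on the gene's strand, and 9 of the 10 genes were matched there. P4HA3 was not matched. Capitals mark ACGTG or its reverse complement, a form of the core bound by hypoxia-inducible factors, in PLOD2 and P4HA1. The form GCGTG was not searched for and stands unmarked in the PLOD2 stretch. In SERPINH1 capitals mark the heat shock element (TTC, GAA and TTC, each 2 bases apart). The PLOD2 stretch (chr3:146161271-146161429, minus strand) ends 87 bases before the start site, and the P4HA1 stretch (chr10:73096935-73096964, minus strand) ends 69 bases before it. The SERPINH1 stretch (chr11:75562169-75562198, plus strand) ends 55 bases before the first of 2 SERPINH1 start sites in RefSeq (75562253 and 75562473). All 3 stretches lie inside the gene spans of GENCODE 29, which start further upstream. All 30 bases of the P4HA1 stretch and all 30 of the SERPINH1 stretch are in an annotated exon there, and 0 of the 159 bases of the PLOD2 stretch are.
PLOD2: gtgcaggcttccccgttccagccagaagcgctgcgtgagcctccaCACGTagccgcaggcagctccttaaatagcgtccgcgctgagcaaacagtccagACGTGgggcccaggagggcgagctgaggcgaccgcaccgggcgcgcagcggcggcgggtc
P4HA1: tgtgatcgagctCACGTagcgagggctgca
SERPINH1: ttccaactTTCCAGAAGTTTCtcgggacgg

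In windows of 250 bases before to 50 bases after the start site, searched on both strands, ACGTG matched in 3 of the 9 genes, PLOD2, P4HA1 and SERPINH1. Of all 35116 windows of that length 21.4% held it. The heat shock element matched in SERPINH1 alone among the 9, and in 0.49% of all windows. It was added to the search after the sequence had been seen. CCAAT matched in P4HA2, PLOD2 and SERPINH1, and in 34.6% of all windows. CACGTG, which contains ACGTG and is known as the MYC site, and TAATTA, a homeobox core, matched in 0 of the 9, against 7.26% and 4.84% of all windows. These matches describe letters and not binding.

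Each library had 14644077 to 16886026 reads assigned to genes, and the chi-square per degree of freedom between libraries was 2.32 to 5.52 within groups and 109 to 120.04 between them. DLX5 had 1609 ± 59.1 CPM (read counts scaled to library size with TMM factors; SD, n = 3) in the overexpressing libraries and 12.8 ± 0.804 CPM in the controls, so each library matched its label. Of 11 markers of adrenergic neuroblastoma, 11 were at 1 CPM or more in the controls and 10 with DLX5, and all 11 were lower with DLX5, with a summed level of 2051 to 2212 CPM against 6007 to 6702 CPM. Of 9 fibroblast markers 8 could be tested, 7 were higher and PDGFRA did not pass, at a log2 fold change of -0.15 ± 0.08. Their summed level was 799.6 to 829 CPM with DLX5 and 530.0 to 549 CPM in the controls, and POSTN was at 0 in every library. Summed epithelial markers were at 30.9 to 33.4 CPM against 12.05 to 16.95 CPM with KRT5 at 0, Schwann or glial markers at 34.7 to 37.0 CPM against 43.1 to 49.1 CPM, endothelial markers at 4.27 to 5.10 CPM against 1.07 to 1.26 CPM, and blood markers at no more than 1.203 CPM. The part of these shifts in the results was not tested. In bulk RNA a change in the share of cells that express a gene and a change in RNA per cell cannot be told apart.

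Collagen folding and hydroxylation genes were mostly higher with DLX5. Of the 10 genes, 9 had enough counts to be tested, 7 rose, COLGALT1 and P4HA3 did not pass, and PLOD2 was left out by the filter on low counts (edgeR quasi-likelihood test, Benjamini-Hochberg adjusted p under 0.05 over 17269 genes). Of all genes tested 29.8% rose and 28.8% fell, 58.6% in all. None of the 9 fell with edgeR, DESeq2 or limma-voom, and 0 fell at an unadjusted p under 0.05. At 2-fold or more 4 rose (P3H1, P4HA2, CRTAP and SERPINH1), against 11.3% of all genes tested. In 9 of the 10 genes every DLX5 library lay above every control, against 31.7% of all genes tested, and in PLOD2 every DLX5 library lay below. Of all genes tested 62.5% had groups that did not overlap in either direction.

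**Figure D1:**
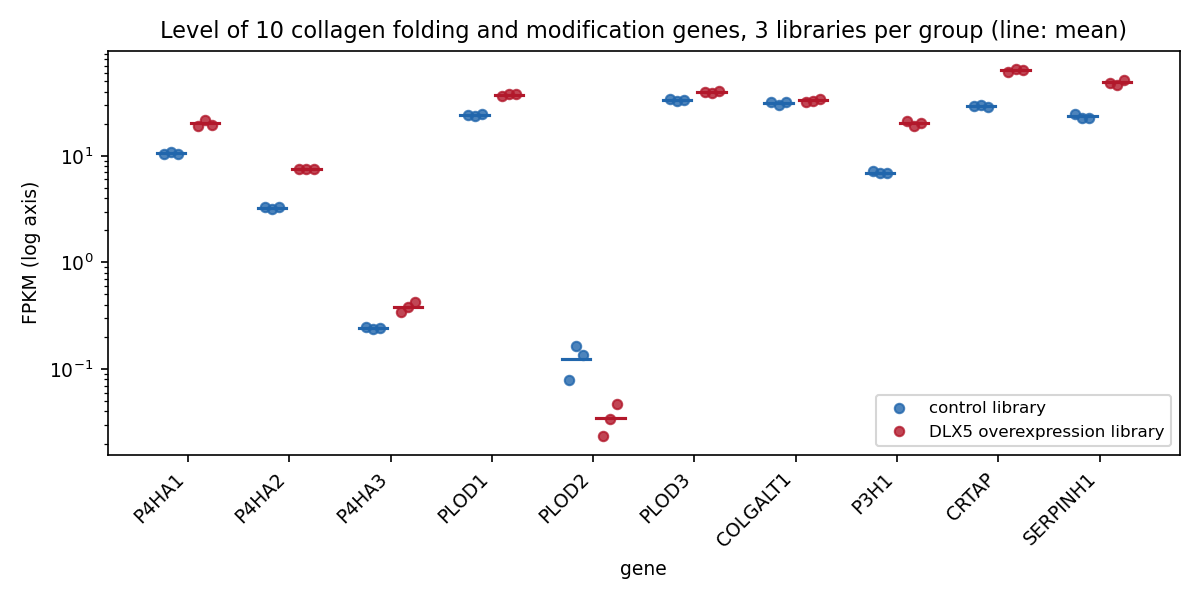
FPKM, the authors' fragments scaled to gene length and library total (log axis), of the 10 genes in each of the 6 libraries, with a line at each group's mean. In PLOD2 the 3 DLX5 libraries lie below the controls, and in the other 9 genes they lie above them.

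P3H1 (ENSG00000117385, chromosome 1, 42746335 to 42767084, minus strand, GRCh38), the enzyme that forms 3-hydroxyproline, had the largest change of the 9 tested. It had 146, 128 and 140.1 CPM in the DLX5 libraries and 48.7, 46.6 and 46.6 CPM in the controls. The lowest DLX5 library was far above the highest control. The log2 fold change was 1.55 ± 0.07 (standard error here and below), or 2.92-fold, with an adjusted p of 6.41e-17. Its neighbour C1orf50, named after its values were seen, has exons within the 250 bases before the P3H1 start site and changed the other way, from 5.75 ± 0.443 to 3.52 ± 0.355 CPM (SD, n = 3), a log2 fold change of -0.71 ± 0.17 (adjusted p = 0.00104).

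CRTAP (ENSG00000170275, chromosome 3, 33113979 to 33147773, plus strand), the non-catalytic partner that P3H1 needs for its stability, had 414, 437 and 431 CPM with DLX5 and 198, 200.2 and 193 CPM in the controls. The groups did not overlap. CRTAP rose by 1.12 ± 0.06 on the log2 scale, or 2.17-fold (adjusted p = 3.18e-15). The log2 ratio of P3H1 to CRTAP in FPKM was -2.08 ± 0.0399 in the controls and -1.65 ± 0.130 with DLX5 (SD, n = 3), with no overlap. PPIB, the isomerase of the complex, rose by 0.41 ± 0.07, from 95.9 ± 7.91 to 128 ± 6.62 CPM (SD). The log2 ratio of P3H1 to PPIB went from -2.84 ± 0.0836 to -1.71 ± 0.167.

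SERPINH1 (ENSG00000149257, chromosome 11, 75562056 to 75572783, plus strand) encodes the collagen chaperone whose heat shock element is printed above. It had 308, 293 and 327 CPM with DLX5 and 157, 143 and 143 CPM in the controls. Control replicate 1 was the highest of its group and still far below every DLX5 library. SERPINH1 rose by 1.06 ± 0.06, or 2.09-fold (adjusted p = 4.72e-14). The general ER chaperone HSPA5, also known as BiP, rose by 0.19 ± 0.06 (adjusted p = 0.0058), and the log2 ratio of SERPINH1 to HSPA5 went from -2.51 ± 0.117 to -1.64 ± 0.111 (SD, n = 3). The processed pseudogene SERPINH1P1 held 7 to 14 counts per library, and reads it might share with its parent were not measured.

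The prolyl 4-hydroxylase enzyme joins alpha subunits, which carry the active site, to the subunit P4HB, a protein disulfide isomerase. P4HA1 (ENSG00000122884, chromosome 10, 73007217 to 73096974, minus strand), the main alpha subunit of most cells, had 59.7, 67.3 and 61.2 CPM with DLX5 and 32.5, 33.9 and 32.3 CPM in the controls. It rose by 0.93 ± 0.07, or 1.91-fold (adjusted p = 3.06e-11). P4HA2 (ENSG00000072682, chromosome 5, 132191838 to 132295315, minus strand), the second alpha subunit, had 64.5, 63.9 and 64.2 CPM against 28.6, 27.0 and 28.0 CPM. Its DLX5 libraries were nearly equal and well apart from the controls. P4HA2 rose by 1.20 ± 0.07, or 2.30-fold (adjusted p = 7.83e-14).

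P4HA3 (ENSG00000149380, chromosome 11, 74235801 to 74311657, minus strand), the third alpha subunit, was near the floor. It had 1.38, 1.55 and 1.70 CPM with DLX5 and 1.01, 0.959 and 0.974 CPM in the controls, or 75 against 47 counts in all. The groups did not overlap, but the log2 fold change of 0.65 ± 0.31 did not pass (adjusted p = 0.0727). It passed with limma when FPKM were used, with a pseudocount of 1 (adjusted p = 0.0276) or 0.1 (0.0271), and over all alternatives the adjusted p ran from 0.0271 to 0.658. Its exons share 166 bases with PPME1 on the other strand, which held 9769 counts over the 6 libraries against 122 for P4HA3, and the sources used here do not say whether strand was used in counting.

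FPKM divide by the length of all annotated exons of a gene, 3093 bases for P4HA1 and 8502 for P4HA2. Before that division both genes were close with DLX5, at 62.7 ± 4.06 and 64.2 ± 0.285 CPM (SD). In the controls they had 32.9 ± 0.895 and 27.9 ± 0.829 CPM. The shares below therefore rest on these lengths. In FPKM P4HA1 was the leading alpha subunit in both groups. It made up 75.1% ± 1.01 of the summed alpha FPKM in the controls and 71.8% ± 1.34 with DLX5 (SD, n = 3), P4HA2 23.2% ± 0.957 and 26.8% ± 1.31, and P4HA3 1.73% ± 0.0570 and 1.37% ± 0.144. The P4HA2 share was higher in every DLX5 library than in every control. P4HB rose by 0.90 ± 0.06, from 387 ± 21.9 to 723 ± 17.5 CPM (SD). The log2 ratio of P4HA1 to P4HB was -2.78 ± 0.109 in the controls and -2.75 ± 0.117 with DLX5, a difference of 0.03 within the spread (exact two-sided permutation p = 0.7).

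PLOD1 (ENSG00000083444, chromosome 1, 11934205 to 11975538, plus strand), known to hydroxylate lysines within the helix, had 197, 201 and 203 CPM with DLX5 and 130.3, 128 and 131 CPM in the controls. It rose by 0.63 ± 0.06, or 1.54-fold (adjusted p = 4.79e-10). PLOD3 (ENSG00000106397, chromosome 7, 101205977 to 101218420, minus strand), which also transfers sugars to hydroxylysine, had 228, 219 and 233 CPM against 196, 185 and 189.8 CPM. The groups were close and did not overlap. PLOD3 rose by 0.25 ± 0.06, or 1.19-fold (adjusted p = 0.000575). Neither gene passed a test against a 1.5-fold change (adjusted p = 0.367 for PLOD1 and 1.0 for PLOD3). PLOD3 shares 429 exon bases, or 7.56% of its own, with ZNHIT1 on the other strand, which did not pass (log2 fold change -0.02 ± 0.07).

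PLOD2 (ENSG00000152952, chromosome 3, 146069440 to 146163653, minus strand), which hydroxylates the lysines of collagen's end segments and so steers the type of cross-link, went against the rest. It had 3, 4 and 6 counts in the DLX5 libraries and 9, 21 and 17 counts in the controls. Every DLX5 library was below every control at a level near the floor in both groups. The ratio of scaled counts was 0.274, with an exact 95% binomial interval of 0.136 to 0.514 that covers counting error only. The gene fell short of the filter because control replicate 1 had 0.615 CPM before scaling and the filter asks for 0.617 CPM in 3 libraries. With no filter PLOD2 fell by 1.83 on the log2 scale (adjusted p = 0.00157), where 14.8% of 33755 genes fell and 16.3% rose.

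COLGALT1 (ENSG00000130309, chromosome 19, 17555594 to 17583162, plus strand), which adds galactose to hydroxylysine, was the flattest of the 10. It had 159, 162 and 168 CPM with DLX5 and 158, 146 and 156 CPM in the controls. The lowest DLX5 library was just above the highest control. Its log2 fold change was 0.09 ± 0.06 (adjusted p = 0.209). Per length, PLOD3 was the leading lysyl hydroxylase of the controls at 57.8% ± 0.594 of the summed PLOD FPKM, with PLOD1 at 42.0% ± 0.522 and PLOD2 at 0.218% ± 0.0790 (SD, n = 3). With DLX5 PLOD1 and PLOD3 came close to each other, at 48.5% ± 0.828 and 51.4% ± 0.829, and PLOD2 made up 0.0450% ± 0.0149. The log2 ratio of PLOD3 to PLOD1 went from 0.46 ± 0.0328 to 0.08 ± 0.0479, and that of COLGALT1 to PLOD3 from -0.10 ± 0.0280 to -0.26 ± 0.0405.

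**Figure D2:**
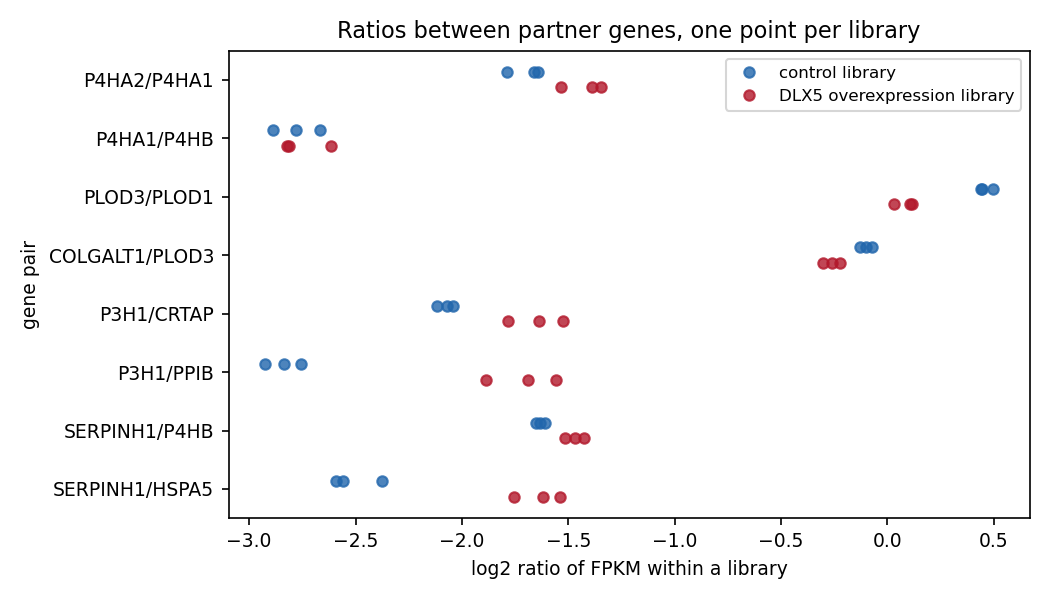
Log2 ratio of FPKM between partner genes within each library, controls in blue and DLX5 libraries in red. Of the 8 pairs drawn, P4HA1 to P4HB overlaps between groups and the other 7 do not.

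In all 10 such ratios were compared, and library scaling cancels within a library. For 9 of the 10 the groups did not overlap, with an exact two-sided permutation p of 0.1 (0.111 after Benjamini-Hochberg adjustment over the 10), the smallest that 3 libraries against 3 can give. None could therefore pass a threshold of 0.05. The share of other gene pairs whose groups do not overlap was not computed. Among single genes tested, in CPM, it was 62.5%, so 9 of 10 is not read as a trait of these pairs.

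The order of levels also differed between groups. It rests on the length by which FPKM divide, that of all annotated exons of a gene. By mean CPM the order was another. In the controls CRTAP (197 ± 3.52) then stood above PLOD3 (190 ± 5.48), and P3H1 (47.3 ± 1.23) above P4HA1 (32.9 ± 0.895). With DLX5 P4HA2 (64.2 ± 0.285) stood above P4HA1 (62.7 ± 4.06) (SD). The libraries of CRTAP and PLOD3 overlapped there, as did those of P4HA2 and P4HA1. In FPKM the controls ranked PLOD3 first at 33.3 ± 0.977, then COLGALT1 at 31.1 ± 1.30, CRTAP at 29.2 ± 0.489, PLOD1 at 24.2 ± 0.360 and SERPINH1 at 23.4 ± 1.29 (SD, n = 3). COLGALT1 and CRTAP overlapped there, as did PLOD1 and SERPINH1. P4HA1 followed at 10.6 ± 0.275, P3H1 at 6.94 ± 0.181, P4HA2 at 3.25 ± 0.0993, P4HA3 at 0.242 ± 0.00591 and PLOD2 at 0.125 ± 0.0432. With DLX5 CRTAP was first at 63.3 ± 1.93 FPKM and SERPINH1 next at 48.8 ± 2.52, ahead of PLOD3 at 39.6 ± 1.12, PLOD1 at 37.3 ± 0.595 and COLGALT1 at 33.0 ± 0.891. P3H1 at 20.2 ± 1.22 overlapped P4HA1 at 20.1 ± 1.37, and P4HA2, P4HA3 and PLOD2 came last at 7.48 ± 0.0195, 0.382 ± 0.0396 and 0.0347 ± 0.0120. Among the genes tested CRTAP stood at the 97.2nd percentile of FPKM with DLX5 and P3H1 moved from the 63.5th to the 87.7th.

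Other collagen folding genes of the ER were listed beside these 10. Of 12 tested, 9 rose, 2 missed the threshold and 1 fell. Their median log2 fold change was 0.60, against -0.0018 over all genes tested. P3H2, a paralog of P3H1 known for basement membrane collagen, had the largest change, from 0.715 ± 0.225 to 8.12 ± 0.909 CPM (SD, n = 3), a rise of 3.50 ± 0.23 on the log2 scale. The prolyl isomerases FKBP9 and FKBP10 rose by 1.01 ± 0.06 and 0.61 ± 0.06. The gene that fell was COLGALT2, the paralog of COLGALT1 and named after its values were seen, from 10.1 ± 0.546 to 8.02 ± 1.09 CPM (log2 fold change -0.33 ± 0.13, adjusted p = 0.0362). Its call was lost in 9 of 19 alternatives: with DESeq2, on both log2 FPKM scales, at an adjusted p under 0.01, against a 1.5-fold change, and without DLX5 replicate 2 (log2 fold change -0.26) or 3 (-0.29) or control replicate 2 or 3 (both -0.31).

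Of 7 genes of procollagen export 3 rose and 4 missed the threshold (median 0.10). CREB3L1, an ER-bound transcription factor known to induce collagen secretion genes, rose by 2.07 ± 0.12, from 5.04 ± 0.719 to 21.1 ± 1.10 CPM (SD). The COPII coat genes SEC23A and SEC24D rose by 0.63 ± 0.08 and 0.25 ± 0.06. PREB, which starts COPII coat assembly, had a log2 fold change of -0.12 ± 0.07 (adjusted p = 0.121) and passed as lower with upper-quartile factors (adjusted p = 0.0463) and with no scaling factors (0.0194), the lowest of the 19 alternatives.

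**Figure D3:**
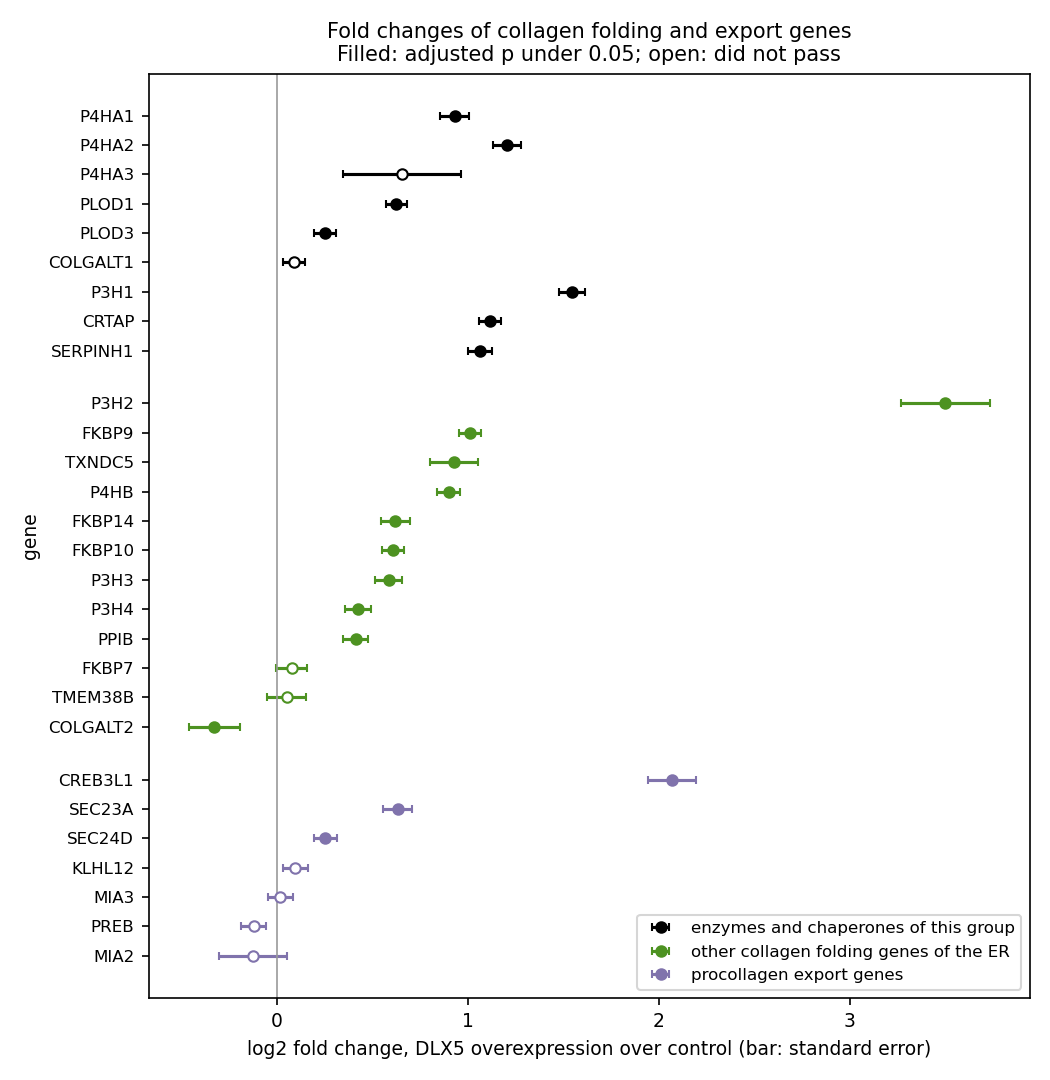
Log2 fold change with its standard error for the 9 tested genes, 12 other collagen folding genes of the ER and 7 procollagen export genes. P3H2 and CREB3L1 lie furthest to the right, and COLGALT2 is the single filled point left of 0.

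The fibrillar collagen chains are among the enzymes' substrates. Summed FPKM of 11 fibrillar collagen chains was 193 ± 5.22 in the controls and 1033 ± 20.3 with DLX5 (SD, n = 3), or 5.35-fold, and 8 of 9 tested chains rose, 1 fell and the median log2 fold change was 2.25. COL3A1, COL5A2 and COL1A1 rose by 2.01 ± 0.06, 5.95 ± 0.08 and 3.93 ± 0.07, and COL5A1 by 2.25 ± 0.07. The chain that fell was COL11A2, named after its values were seen, at -0.55 ± 0.20 (adjusted p = 0.0194), and its call was lost in 7 of 19 alternatives: on both log2 FPKM scales, at an adjusted p under 0.01, against a 1.5-fold change, and without DLX5 replicate 2 (log2 fold change -0.36) or control replicate 1 (-0.47) or 3 (-0.49). Summed FPKM of the prolyl 4-hydroxylase alpha subunits rose 1.99-fold, from 14.1 ± 0.187 to 28.0 ± 1.38. P3H1 and CRTAP together went from 36.2 ± 0.556 to 83.5 ± 0.924, or 2.31-fold, and the 3 lysyl hydroxylases from 57.7 ± 1.20 to 76.9 ± 1.26, or 1.33-fold. No test was made of these sums.

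**Figure D4:**
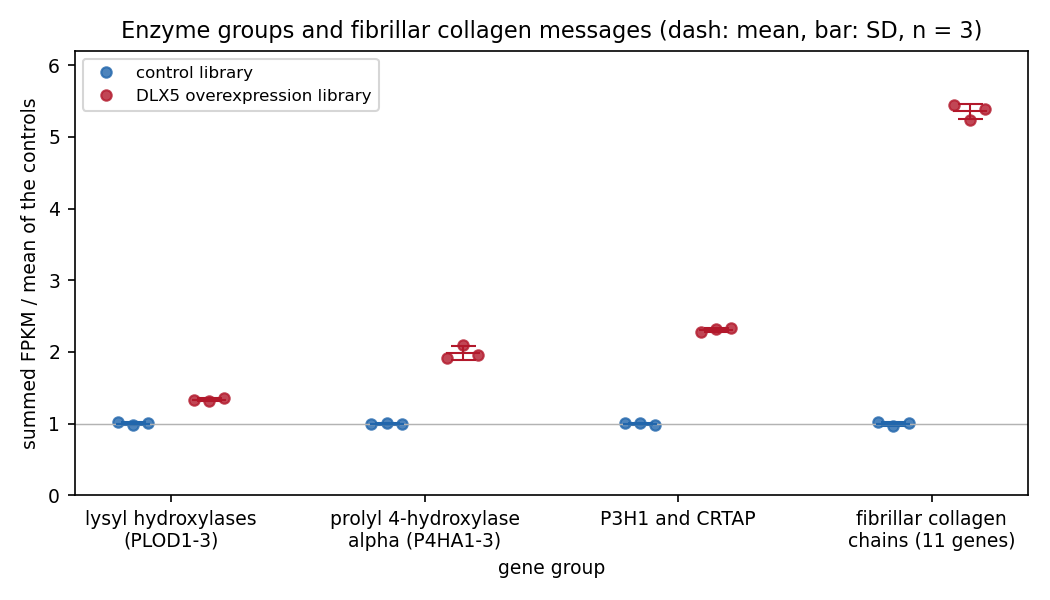
Summed FPKM of 3 enzyme groups and of the fibrillar collagen chains, each divided by its mean in the controls, with points for libraries, dashes for means and bars for SD (n = 3). The collagen chains lie at 5.35-fold and the enzyme groups between 1.33-fold and 2.31-fold.

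Fibrillar collagen message was also set against that of each enzyme group. There were 13.7 ± 0.539 FPKM of fibrillar chains for each FPKM of prolyl 4-hydroxylase alpha subunit in the controls and 37.0 ± 2.49 with DLX5 (SD, n = 3). The same ratio went from 3.35 ± 0.0295 to 13.4 ± 0.269 for the lysyl hydroxylases, from 5.34 ± 0.190 to 12.4 ± 0.340 for P3H1 with CRTAP, and from 8.26 ± 0.364 to 21.2 ± 0.870 for SERPINH1. In each case the lowest DLX5 library was above the highest control. Such ratios were not made for other collagen chains. Summed FPKM of 13 basement membrane and microfibrillar chains went from 122 ± 6.34 to 221 ± 6.86 (SD).

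Most other collagen chains and most genes of procollagen processing and cross-linking were higher with DLX5. Of 8 tested basement membrane and microfibrillar chains 7 rose and 1 fell (median 0.60). COL6A2 was up by 1.34 ± 0.06, and COL4A1 and COL4A2 were both up by 0.75 ± 0.06. The chain that fell was COL15A1, which was low in the controls and near the floor with DLX5. It went from 2.74 ± 0.322 to 0.524 ± 0.342 CPM (SD), or 132 against 25 counts in all. Its log2 fold change of -2.39 ± 0.36 became -3.01 without DLX5 replicate 2. Of 12 processing and cross-linking genes 9 rose, 1 fell and 2 did not pass (median 0.77). The cross-linking oxidases LOX, LOXL2 and LOXL4, which act on lysines and hydroxylysines, rose by 3.40 ± 0.08, 1.70 ± 0.06 and 3.71 ± 0.11. The procollagen N-proteinase ADAMTS2 fell, from 76.8 ± 5.75 to 12.98 ± 2.62 CPM (SD).

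General ER chaperones went in both directions. The 20 genes tested on this list also held oxidases and the transcription factors XBP1, ATF4 and DDIT3. Of the 20, 12 rose, 5 missed the threshold and 3 fell (median 0.28). PDIA4 and HSP90B1 rose by 1.21 ± 0.06 and 0.78 ± 0.06, the oxidase ERO1B by 1.05 ± 0.14 and DNAJC3 by 0.54 ± 0.09. The 3 that fell were ATF4 (-0.34 ± 0.07, adjusted p = 8.22e-05), CANX (-0.24 ± 0.06) and DNAJB11 (-0.21 ± 0.07). XBP1, a transcription factor of the unfolded protein response, had a log2 fold change of 0.02 ± 0.06 (adjusted p = 0.756). DDIT3 did not pass either (0.39 ± 0.18). ATF4, CANX, DNAJB11, XBP1 and DDIT3 were named after their values were seen. Whether the unfolded protein response changed was not tested.

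Hypoxia response genes were mostly lower. Of 17 tested 10 fell, 4 missed the threshold and 3 rose (median -0.45). Of all genes tested 28.8% fell and 29.8% rose. The 3 that rose, named after their values were seen, were NDRG1 (0.57 ± 0.08), EGLN1 (0.50 ± 0.06) and ALDOA (0.47 ± 0.16). P4HA1 and P4HA2, which belong to the known targets of the same factors, rose as well. The part of these factors was not tested. VEGFA fell, from 144 ± 2.17 to 61.9 ± 5.39 CPM (SD), EGLN3, an oxygen sensor related to the collagen hydroxylases, fell by 1.27 ± 0.08 on the log2 scale, HK2 fell by 0.84 ± 0.07 and PGK1 fell by 0.55 ± 0.06. PLOD2 and P4HA1, whose ACGTG letters are printed above, lay in opposite directions. Of 4 genes that bear on cofactors, the isocitrate dehydrogenases IDH1 and IDH2, which make 2-oxoglutarate, changed in opposite directions (0.41 ± 0.07 and -0.42 ± 0.06), the ascorbate transporter SLC23A2 fell by 0.34 ± 0.08, and SLC23A1 was under 1 CPM and did not pass (-0.42 ± 0.40).

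**Figure D5:**
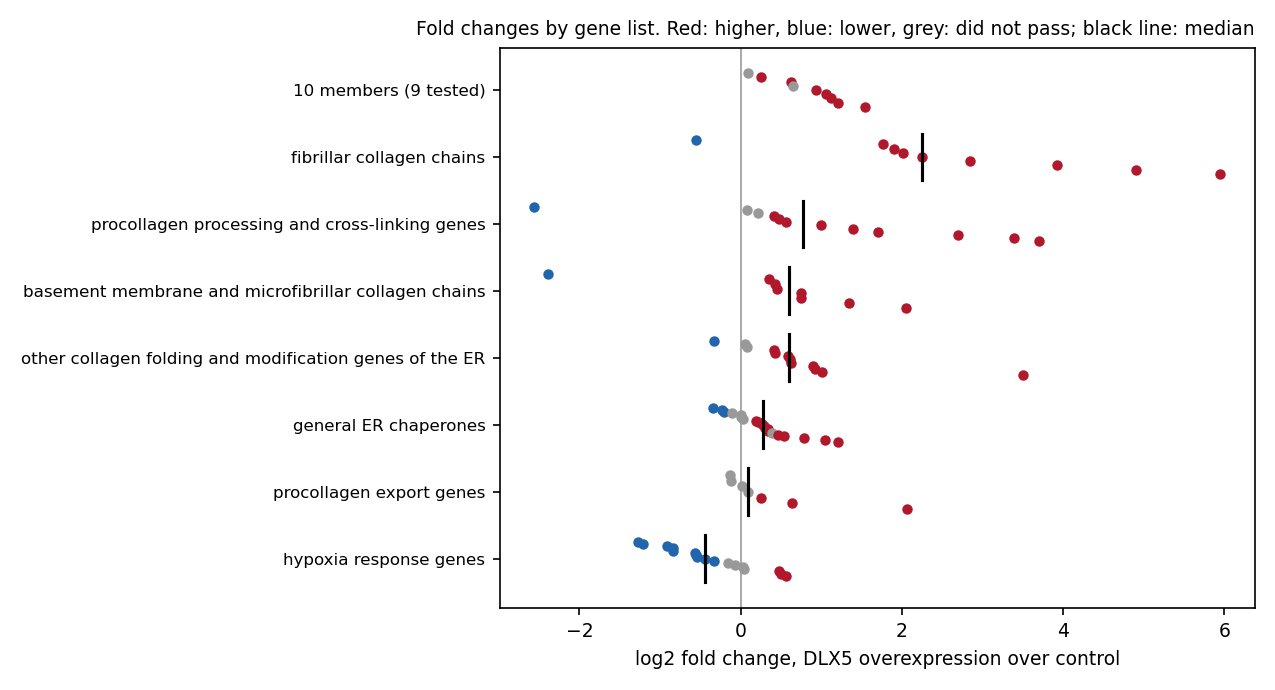
Log2 fold change of each tested gene, by list, with red for higher, blue for lower, grey for those that did not pass and a black line at the median of each list other than the first. The 9 tested genes lie between 0.09 and 1.55, the fibrillar chains reach 5.95, and most hypoxia genes lie left of 0.

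The pattern most like that of P3H1 was looked for among 13823 protein-coding genes tested, by the root mean square difference of centred log2 CPM over the 6 libraries. The nearest were RNASET2 (0.0334), the tropomyosin TPM1 (0.0426), SHISA5 (0.0546), the endocytic collagen receptor MRC2 (0.0586) and the phosphodiesterase PDE4A (0.0644), with log2 fold changes of 1.48 to 1.60. Among the other collagen folding genes P4HA2 was nearest, at rank 259 and a difference of 0.178, and CRTAP next at rank 420 and 0.227.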

How the data were processed

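Total RNA of 6 SY5Y libraries was sequenced, 3 with DLX5 overexpression and 3 controls, grouped by their labels. The deposited counts are whole reads per gene. HISAT2 2.0.5, featureCounts 1.5.0-p3 and build hg19 are named in the submitters' processing notes, but all 58735 genes have the identifiers and positions of GENCODE 29, so coordinates are given as GRCh38. The deposited FPKM, made by the authors, equal the counts over gene length and over 0.968 to 1.03 times the library total, and hold the same reads. Counts were tested with edgeR 4.0.16 (filterByExpr, TMM, two-sided quasi-likelihood test without covariate, 17269 of 33755 genes with any count, biological coefficient of variation 6.17%, R 4.3.3). A gene passed at a Benjamini-Hochberg adjusted p under 0.05 over all tested genes. The standard error is the log2 fold change over the square root of F. The code was tested on simulated counts.

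The members and lists were chosen with earlier results of these data known. Named genes are the 10 members, DLX5, partner genes of the compared ratios, up to 4 genes per list with the smallest adjusted p, and the 5 genes most like the member with the largest change (log2(CPM + 0.1)). Others are said to be named after their values were seen. Alternatives were other scaling factors, filters, thresholds and tests (DESeq2 1.42.0, limma 3.58.1 with voom or on log2 FPKM), a replicate block, and each library left out. Protein sequences were not analysed here. Same-numbered libraries did not deviate together.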

Additional observations from a re-analysis of the deposited data

How the results depend on the processing

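The 7 members called higher stayed at 7 under every count-based alternative except the test against a 1.5-fold change, which left 5, and log2(FPKM + 1) and log2(FPKM + 0.1) gave 8. The count of members called lower was 0 as reported, 1 with no filter on low counts, and 0 to 1 with a library left out. PLOD2 passed the filter and was lower in every such fit but the one without control replicate 2. Over the edgeR fits that held it the log2 fold changes were -2.12 to -1.61 and the adjusted p 0.000797 to 0.0137. With a library left out the filter asks for fewer libraries, and PLOD2 passed it only through the controls, where it was higher. Its DLX5 libraries were at 0.178 to 0.357 CPM before scaling. The fits with a library left out are therefore no separate support for its fall. Over all genes 5152 were higher and 4969 lower, and 2158 and 1126 against a 1.5-fold change. The log2 fold change stayed between 1.42 and 1.60 for P3H1, 1.05 and 1.14 for CRTAP, 1.00 and 1.11 for SERPINH1, 1.00 and 1.22 for P4HA2, 0.86 and 0.97 for P4HA1, 0.56 and 0.64 for PLOD1, 0.18 and 0.28 for PLOD3 and 0.02 and 0.11 for COLGALT1. The summed levels and ratios moved by less than their spread in every alternative run on them, leaving out each library included. That alternative was added for the ratios after the data were seen.

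The replicate block gave 7 members higher and 0 lower, and 5208 genes higher and 5016 lower. The correlation of deviations between same-numbered libraries was 0.0275, 0.151 and -0.0735, so the numbers do not pair the libraries, and DLX5 replicates 1 and 3 correlated better with another number. Depth limits PLOD2 and P4HA3, with 60 and 122 counts over 6 libraries.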

Other observations

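COL1A2, whose chain normally joins the product of COL1A1 in type I collagen, was nearly absent beside it. With DLX5 COL1A1 was at 196 FPKM and COL1A2 at 0.722 FPKM, and in the controls they were at 12.9 and 0.101 FPKM. Of the summed fibrillar FPKM COL1A2 made up 0.0698% ± 0.0110 with DLX5 and 0.0523% ± 0.0165 in the controls (SD, n = 3), and COL1A1 19.0% ± 0.170 and 6.70% ± 0.274. COL3A1, which forms trimers of its own chain alone, was the largest share in both groups, at 61.7% ± 0.347 with DLX5 and 82.2% ± 0.908 in the controls. COL1A2 rose by 2.84 ± 0.22 on the log2 scale and was named after its values were seen.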
